A study of Mus musculus with 12 samples.

Results

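The mevalonate to squalene segment of cholesterol synthesis was followed through 9 of its enzyme genes in the mouse erythroid cell line G1E-ER4. These were Acat2, Hmgcs1, Mvk, Pmvk, Mvd, Idi1, Fdps, Fdft1 and Sqle, chosen by symbol as genes of this segment. All 9 were found among the 17210 genes of the count table, and all 9 were among the 11177 genes with enough counts to be tested. The line has no working Gata1 gene of its own. In its place it holds a hormone-dependent fusion of GATA1, the master transcription factor of red cell development, with part of an estrogen receptor. The hormone β-estradiol (EST) turns this fusion on. The study reports that overexpressed SREBP2 also brought the fusion into the nucleus of cells without EST. Cells of every group were transduced with retrovirus for 24 h and then given vehicle or EST for 6 h. The virus was either empty (Vector, Vector+EST) or encoded the active fragment of SREBP2, amino acids 1 to 468 (SREBP2, SREBP2+EST). Each of the 4 groups had 3 libraries, and the strain was labelled C57BL/6J throughout. Sources differ on the EST dose: the protocol of the samples gives 500 nM, whereas the series design gives 200 nM. The labels do not say whether the libraries of a group came from separate cultures. The figure legends of the study name independent experiments for sets of panels that include the sequencing, without tying libraries to them. If the libraries were not separate cultures, the p-values measure only a technical spread.

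Cells build cholesterol from acetyl-CoA. Cytosolic thiolase (Acat2) and HMG-CoA synthase (Hmgcs1) make HMG-CoA, which HMG-CoA reductase turns into mevalonate. The kinases Mvk and Pmvk and the decarboxylase Mvd convert mevalonate into isopentenyl diphosphate, the building block of all isoprenoids, and the isomerase Idi1 makes its reactive partner. Fdps assembles farnesyl diphosphate, the point where the routes to sterols, dolichol, ubiquinone and protein prenylation part. Fdft1 (squalene synthase) commits farnesyl diphosphate to sterols, and Sqle (squalene epoxidase) carries out the next, rate-limiting oxygenation. SREBP2 is the transcription factor that raises these genes when membrane sterol is low. It is freed from the membrane by cleavage, and the fragment used here is active without that cleavage. SREBP factors bind sterol regulatory elements in promoters, often beside sites of the CCAAT-binding factor NF-Y and of Sp1.

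Promoter sequences from RefSeq (GRCm38.p6) were at hand for 6 of the 9 genes, namely Acat2, Hmgcs1, Mvk, Pmvk, Mvd and Idi1. The 250 bases upstream of the start were searched on both strands for the sterol regulatory element letters TCACNCCA, for the GC box GGGCGG and for the NF-Y box CCAAT. Sites for GATA factors were searched as GATA preceded by adenine or thymine and followed by adenine or guanine. Matches of different motifs did not overlap in these promoters. Pmvk has a pair of promoters in the table, so 7 promoters were searched. CCAAT occurred in 5 of these 7 promoters, against 33.8% of 32851 mouse promoters of the same length. The GC box also occurred in 5 of the 7, against 32.7% of promoters. The sterol element letters occurred in 1 of the 7, that of Hmgcs1, 137 bases before its start, against 3.67% of promoters. A GATA site occurred in none of the 7, against 26.5% of promoters. A match describes the letters and not a site in use. The 4 promoters with 2 or more CCAAT matches are shown 5′ to 3′ on the strand of the gene, since they differ in the number and spacing of these letters, with the sterol element letters and CCAAT, which reads ATTGG on the other strand, in capitals.
Hmgcs1 (chr13:119690101-119690350, plus strand): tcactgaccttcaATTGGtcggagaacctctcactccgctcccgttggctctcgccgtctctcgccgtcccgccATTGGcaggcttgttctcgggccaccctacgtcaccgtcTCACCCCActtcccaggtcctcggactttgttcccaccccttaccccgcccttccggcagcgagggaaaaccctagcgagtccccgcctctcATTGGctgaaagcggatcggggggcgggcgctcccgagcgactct
Mvk (chr5:114444019-114444268, plus strand): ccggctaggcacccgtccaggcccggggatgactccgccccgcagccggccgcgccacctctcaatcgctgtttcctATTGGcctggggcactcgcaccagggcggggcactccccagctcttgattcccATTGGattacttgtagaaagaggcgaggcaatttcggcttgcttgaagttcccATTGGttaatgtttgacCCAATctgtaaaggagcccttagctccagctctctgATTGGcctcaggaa
Mvd (chr8:122443423-122443672, minus strand): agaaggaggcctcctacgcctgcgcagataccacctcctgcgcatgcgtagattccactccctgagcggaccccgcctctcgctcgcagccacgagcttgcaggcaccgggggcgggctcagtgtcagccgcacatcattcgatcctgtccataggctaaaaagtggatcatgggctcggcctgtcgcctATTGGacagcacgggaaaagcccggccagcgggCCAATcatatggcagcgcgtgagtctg
Idi1 (chr13:8885356-8885605, plus strand): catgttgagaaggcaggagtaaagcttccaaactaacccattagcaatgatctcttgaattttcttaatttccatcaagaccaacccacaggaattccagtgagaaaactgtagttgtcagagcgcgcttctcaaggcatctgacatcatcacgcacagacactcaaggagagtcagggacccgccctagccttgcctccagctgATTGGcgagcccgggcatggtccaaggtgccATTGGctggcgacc

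The Mvk window held 5 CCAAT matches, the most of the 6 genes, and Hmgcs1 held 3. In the plus-strand promoter of Mvk, 242 bases lie between its start and that of Mmab, a gene of cobalamin metabolism that is read in the opposite direction, so both genes share this DNA. Acat2 held no CCAAT match. In Pmvk, CCAAT was found once in the upstream promoter and not in the other.

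Library totals ran from 18700959 to 19152281 counts. Levels are given as CPM, the counts relative to the TMM-scaled total of each library. Srebf2, the mouse gene for SREBP2, was at 355 to 370 CPM in Vector, 432 to 456 CPM in Vector+EST and 797 to 837 CPM in the 6 libraries with SREBP2. The quantitative PCR of the study traced the introduced SREBP2 as a human transcript, so how much of the introduced RNA is counted under Srebf2 is not known. Reads of Gata1 stood at 1751 to 1785 CPM in Vector, at 420 to 471 CPM in Vector+EST, at 511 to 585 CPM in SREBP2 and at 468 to 577 CPM in SREBP2+EST, so the cells labelled SREBP2 and untreated lay near the level of both EST groups. Principal component 1 over all genes tested, with 65.3% of the variance, set Vector (-65.1 to -64.8) apart from Vector+EST (9.45 to 12.3), SREBP2 (22.4 to 29.6) and SREBP2+EST (26.1 to 31.2), so untreated SREBP2 cells lay on the side of the EST groups over all genes too. A pair of libraries stood apart from their groups on this component, where SREBP2 library 1 (29.6) was close to SREBP2+EST libraries 2 and 5 (31.0 and 31.2), and SREBP2+EST library 1 (26.1) was closer to SREBP2 libraries 3 and 5 (22.5 and 22.4). All 10 erythroid markers exceeded 1 CPM, whereas of 8 markers of embryonic stem cells, the cell type named in the labels, Pou5f1, Zfp42, Utf1 and Tdgf1 are not in the table and the other 4 summed to at most 0.647 CPM. The erythroid markers moved with the groups and not as one. Their sum was 8205 to 8593 CPM in Vector and 6162 to 7320 CPM in the other groups. With EST in Vector cells 4 of the 10 were higher and 5 lower, where 35.2% of all genes rose and 35.5% fell. Markers of other cell types were low but moved with the groups too. The 6 megakaryocyte genes summed to 44.0 to 52.8 CPM in Vector+EST, 54.8 to 63.2 CPM in Vector, 87.7 to 106 CPM in SREBP2 and 94.8 to 112 CPM in SREBP2+EST, but the genes did not move as one. Of the 4 tested, 2 were higher and 2 lower with SREBP2 without EST, among them Pf4, a platelet chemokine, at a log2 fold change of 2.33 ± 0.12 (SE) and Itga2b, an integrin subunit of platelets, at -1.96 ± 0.13. With EST, 2 were higher with SREBP2, Pf4 at 2.86 ± 0.13, and Itga2b and Gp9 did not pass. The 4 granulocyte, macrophage and mast cell genes in the table (Mcpt8 and Ly6c2 are not in it) summed to 11.97 to 12.33 CPM in Vector and to 1.96 to 4.33 CPM in the other groups, and 6 neural genes to 9.76 to 11.5 CPM in Vector and to 2.03 to 4.53 CPM in the others. The 6 fibroblast genes summed to 4.02 to 36.3 CPM per library, and in Vector nearly all of this was Col1a2, at 18.9 to 19.9 CPM. The part of these cell types in the enzyme changes was not tested.

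The 9 enzymes together took 0.226% ± 0.00365 (SD, n = 3) of all counts in Vector, 0.148% ± 0.00372 in Vector+EST, 0.546% ± 0.0152 in SREBP2 and 0.541% ± 0.0117 in SREBP2+EST. In counts, these shares were 42441 to 43585 per Vector library, 27241 to 28407 per Vector+EST library, 100368 to 106171 per SREBP2 library and 100498 to 104770 per SREBP2+EST library. The groups without added SREBP2 overlapped neither each other nor the groups with it, and the SREBP2 and SREBP2+EST libraries overlapped. In bulk RNA, a change in the number of cells that use a gene and a change in RNA per cell cannot be told apart.

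**Figure D1:**
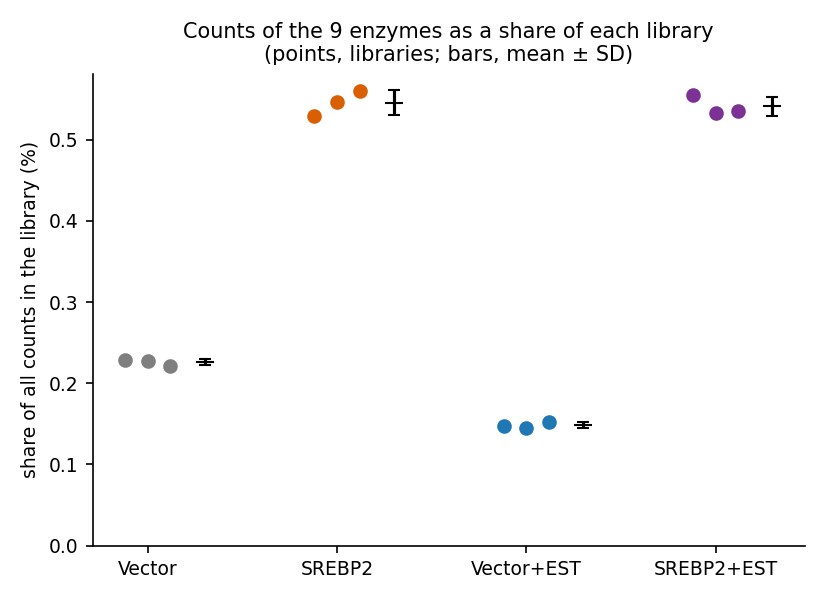
Share of all counts in a library (%, vertical axis) that fell on the 9 enzymes, by group; points are libraries and the bars beside them are the mean ± SD of 3 libraries. Vector+EST lies lowest at 0.148%, Vector follows at 0.226%, and SREBP2 and SREBP2+EST lie together at 0.546% and 0.541%.

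To see what SREBP2 does where EST is present, SREBP2+EST was compared with Vector+EST. All 9 enzymes rose, from 2.26-fold for Sqle to 6.36-fold for Pmvk, with a median log2 fold change of 2.00 against -0.00477 over all genes tested. Of all 11177 genes tested, 14% rose in this comparison. In each of the 9 genes every SREBP2+EST library lay above every Vector+EST library, an arrangement found upward in 20.5% of all genes. The largest rises fell on the middle of the segment. Pmvk and Mvd, which act one after the other on phosphorylated mevalonate, rose 6.36-fold (95% interval 5.82 to 6.94) and 6.35-fold (5.86 to 6.89), and ranked 71st and 72nd among the rises of all genes. Fdps, Hmgcs1 and Mvk followed at 4.10-fold, 4.06-fold and 4.01-fold, with overlapping intervals. Idi1 rose 3.67-fold (3.35 to 4.01) and Acat2 3.47-fold (3.25 to 3.71). The last steps, Fdft1 and Sqle, rose least, by 2.64-fold (2.47 to 2.82) and 2.26-fold (2.12 to 2.42).

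Without EST, all 9 enzymes were again higher in SREBP2 than in Vector cells, by a median log2 fold change of 1.46 against 0.03 over all genes. This comparison called 37.7% of all genes higher and 33.8% lower, and the 9 enzymes stand against that wide background. Pmvk was the most raised at 5.62-fold (95% interval 5.16 to 6.13), followed by Mvd at 4.50-fold (4.16 to 4.87) and Mvk at 3.79-fold (3.51 to 4.09). Acat2 rose 2.90-fold, Fdps 2.74-fold and Hmgcs1 2.38-fold. Idi1, Fdft1 and Sqle rose 1.96-fold, 1.95-fold and 1.53-fold. The libraries of both groups overlapped in none of the 9 genes, where 39.3% of all genes had every SREBP2 library above every Vector library. Both comparisons share no library, but the SREBP2 cells without EST also differed from Vector in Gata1 reads, as given above. Whether the GATA1 fusion was active in these cells was not tested here.

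**Figure D2:**
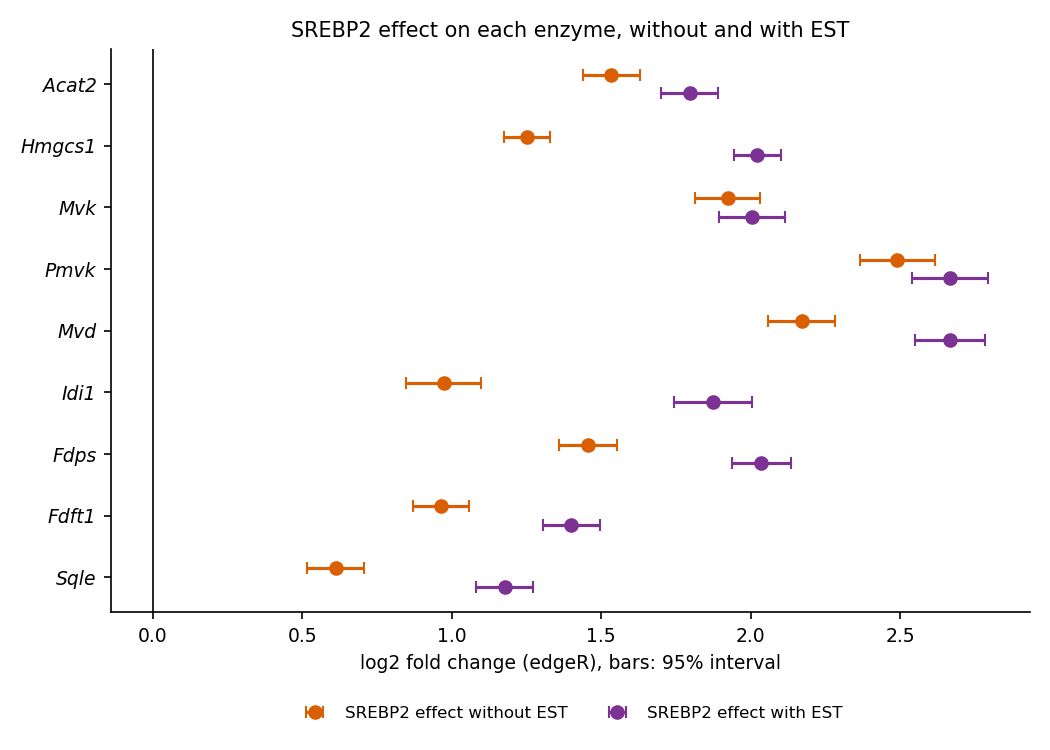
Log2 fold change of each enzyme with SREBP2 (horizontal axis, edgeR; bars are 95% intervals) without EST (SREBP2 against Vector, orange) and with EST (SREBP2+EST against Vector+EST, purple). Every interval lies above 0, Pmvk and Mvd lie farthest to the right, and Sqle lies lowest in both settings.

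The first pair of enzymes joins acetyl-CoA units. Acat2 (Entrez 110460, chr17:12943042-12960725 of GRCm38.p6) encodes the cytosolic thiolase. Acat2 was measured at 151, 142 and 149 CPM in the Vector libraries and at 121, 117 and 126 CPM in the Vector+EST libraries. With added SREBP2, the levels were 403, 430 and 446 CPM without EST and 433, 414 and 416 CPM with EST. The 4 groups lay in the order Vector+EST, Vector and then both SREBP2 groups, which overlapped. Of the 50-base windows of the longest coding Acat2 transcript, 45.9% also occur in its neighbour Acat3, so reads could have been shared between them. Acat3 itself was low, at a mean of 3.03 ± 0.164 CPM in Vector and 1.65 ± 0.432 CPM in Vector+EST.

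Hmgcs1 (Entrez 208715, chr13:119690351-119708260), HMG-CoA synthase of the cytosol, was the most counted of the 9 genes in every library. Its levels were 749, 759 and 740 CPM in Vector and 432, 418 and 424 CPM in Vector+EST. They were 1729, 1801 and 1826 CPM in SREBP2 and 1816, 1679 and 1681 CPM in SREBP2+EST. Every Vector+EST library was below every Vector library, and both lay below all libraries with SREBP2. The SREBP2+EST library numbered 1 stood in the range of the SREBP2 libraries, and the other SREBP2+EST libraries lay below all 3 of them. Of its windows, 13.6% also occur in Gm48342, which is not in the count table.

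The next 3 enzymes act on mevalonate in sequence. Mvk (Entrez 17855, chr5:114444264-114460591), mevalonate kinase, was the least counted of the 9 genes in each Vector library. The Vector libraries held 63.4, 58.7 and 56.7 CPM of Mvk, and the Vector+EST libraries 56.7, 61.7 and 55.0 CPM. SREBP2 brought it to 219, 231 and 228 CPM, and SREBP2 with EST to 225, 231 and 240 CPM. The Vector and Vector+EST libraries overlapped, as did SREBP2 and SREBP2+EST, so Mvk stood at a low level without and at a high level with added SREBP2.

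Pmvk (Entrez 68603, chr3:89454541-89469014), phosphomevalonate kinase, had the largest rise of the 9 with SREBP2 without EST and was level with Mvd in the comparison with EST. Pmvk was measured at 74.0, 69.5 and 67.7 CPM in the Vector libraries and at 60.4, 56.8 and 64.4 CPM in the Vector+EST libraries. With added SREBP2, the levels were 370, 394 and 424 CPM without EST and 403, 380 and 371 CPM with EST. The Vector and Vector+EST libraries lay close together without overlapping, and both lay far below the libraries with SREBP2.

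Mvd (Entrez 192156, chr8:122433596-122443422), the decarboxylase that releases isopentenyl diphosphate, came after Pmvk without EST. Its levels were 120, 112 and 109 CPM in Vector and 74.5, 79.0 and 88.3 CPM in Vector+EST. They were 495, 508 and 531 CPM in SREBP2 and 509, 516 and 511 CPM in SREBP2+EST. All Vector+EST libraries lay below all Vector libraries. In RefSeq, the lncRNA Gm51557 overlaps Mvd over 3213 bases and is not in the count table. None of the 50-base windows of the longest coding transcripts of Mvk, Pmvk, Mvd or Sqle occur in another GENCODE gene.

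Idi1 (Entrez 319554, chr13:8885606-8892396), isopentenyl diphosphate isomerase, stood out for its response to EST. The Vector libraries held 173, 187 and 179 CPM of Idi1, and the Vector+EST libraries 88.3, 85.8 and 102 CPM. SREBP2 brought it to 346, 356 and 356 CPM, and SREBP2 with EST to 347, 354 and 314 CPM. Vector+EST library 5 was the highest of its group and still lay below every Vector library. Part of the Idi1 sequence is found elsewhere, since 30.5% of its windows occur in 5 other annotated genes, led by Gm13502, which the count table does not list.

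Fdps (Entrez 110196, chr3:89093588-89101967) makes farnesyl diphosphate. Fdps was measured at 324, 319 and 316 CPM in the Vector libraries and at 227, 214 and 232 CPM in the Vector+EST libraries. With added SREBP2, the levels were 823, 870 and 937 CPM without EST and 934, 889 and 936 CPM with EST. The SREBP2 and SREBP2+EST libraries overlapped, and the Vector+EST libraries were the lowest. As many as 86.4% of the windows of its longest coding transcript also occur in other annotated genes, most of them in Gm43738, which the count table does not list, so its reads are less certainly its own.

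Fdft1 (Entrez 14137, chr14:63145150-63181687) makes squalene. Its levels were 261, 261 and 249 CPM in Vector and 188, 187 and 204 CPM in Vector+EST. They were 476, 502 and 528 CPM in SREBP2 and 505, 506 and 518 CPM in SREBP2+EST. Its Vector+EST libraries lay below its Vector libraries and its SREBP2 libraries above both. Fdft1 overlaps Ctsb, a lysosomal protease gene, by 774 bases. Of its windows, 30.7% occur in 2 other annotated genes, with 19.9% in Ctsb, so the counts in these stretches cannot be assigned with certainty.

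Sqle (Entrez 20775, chr15:59315092-59331193) oxidises squalene. The Vector libraries held 319, 307 and 306 CPM of Sqle, and the Vector+EST libraries 210, 204 and 211 CPM. SREBP2 brought it to 453, 490 and 482 CPM, and SREBP2 with EST to 501, 443 and 469 CPM. Its groups kept the same order, with SREBP2 and SREBP2+EST overlapping, but the distance from Vector to the SREBP2 groups was the smallest of the 9 in fold terms.

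**Figure D3:**
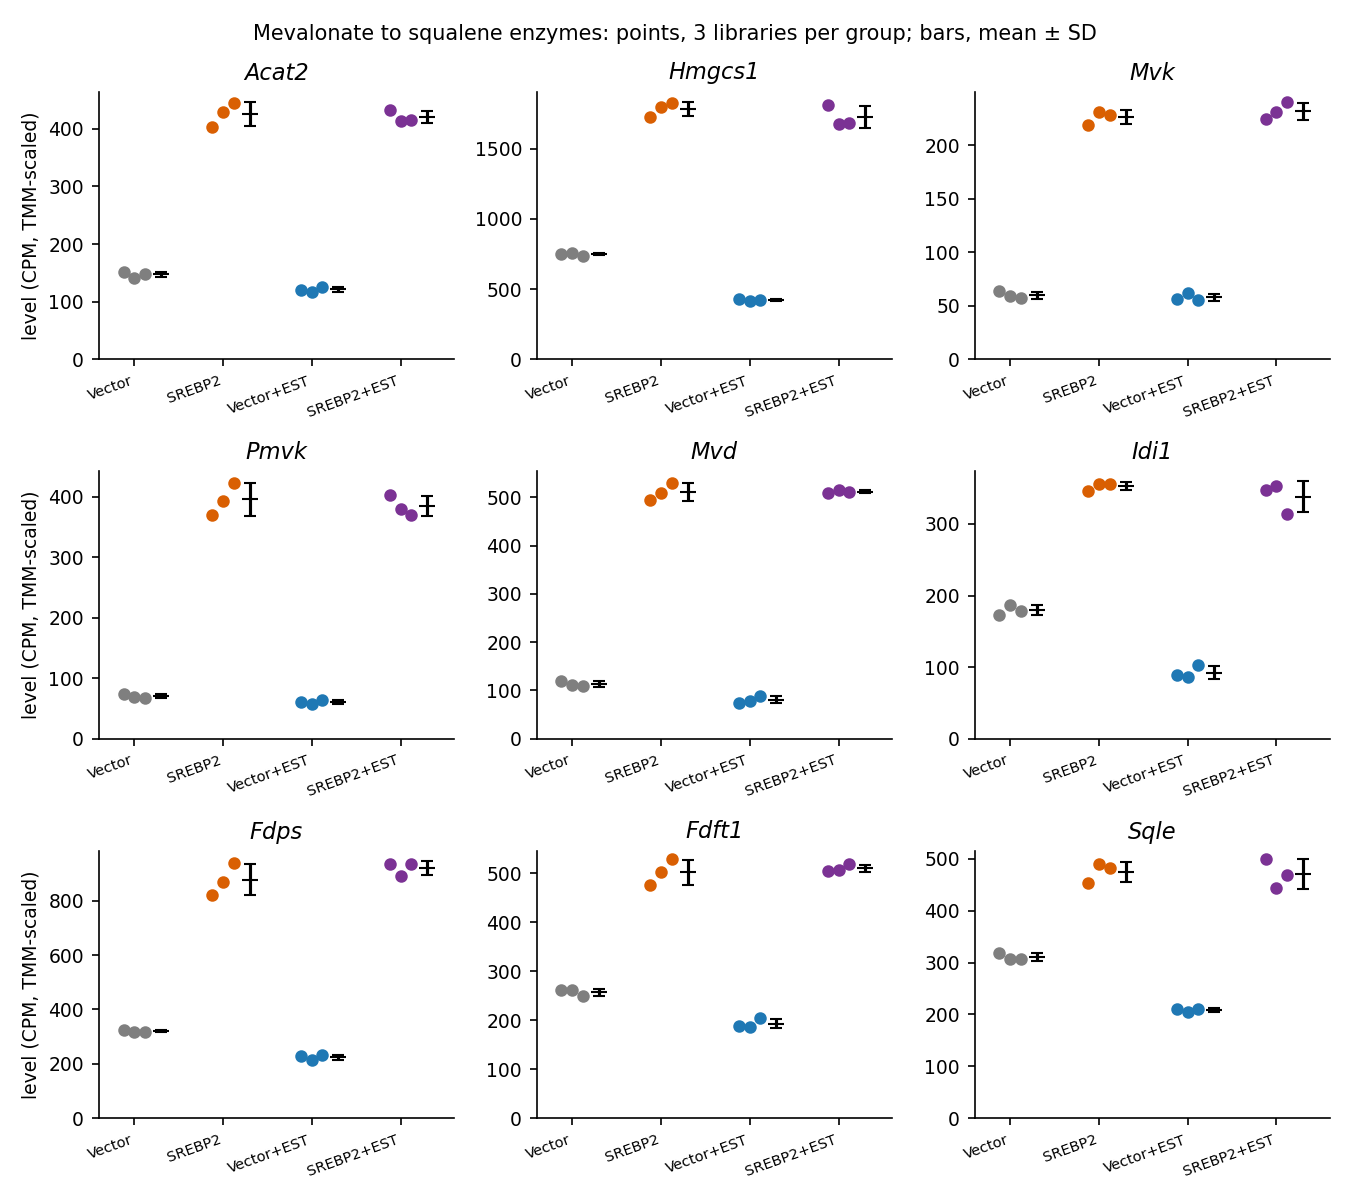
Level of each enzyme in CPM (vertical axis, scale from 0 in each panel) in the 4 groups; points are the 3 libraries and the bars beside them are the mean ± SD. All 6 libraries with SREBP2 lie above all 6 without it in each panel, and Vector+EST lies below Vector in every panel except Mvk, where they overlap.

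EST alone, which activates GATA1 in Vector cells, lowered 8 of the 9 enzymes. All genes tested had a median log2 fold change of 0.01 in this comparison, the enzymes one of -0.49, and 35.5% of all genes were called lower. Idi1 fell most, to 0.513 of its Vector level (95% interval 0.469 to 0.561; edgeR adjusted p = 7.32e-10), and Hmgcs1 followed at 0.567 of its level (0.538 to 0.598; adjusted p = 7.70e-12). Sqle fell to 0.670, Fdps to 0.702, Mvd to 0.710 and Fdft1 to 0.751 of their Vector levels. Acat2 fell to 0.824 (0.770 to 0.880) and Pmvk to 0.860 (0.786 to 0.941; adjusted p = 0.00475). Mvk was at 0.970 of its Vector level, with an interval of 0.895 to 1.05 and an edgeR adjusted p of 0.482. The libraries of both groups were apart in the same 8 genes, all lower with EST, an arrangement found downward in 37.9% of all genes. The order of the falls was not the order of the rises with SREBP2: Pmvk and Mvk, both strongly raised by SREBP2, moved least with EST. Vector+EST library 5 had a summed fibroblast marker level of 36.3 CPM against 4.70 and 4.74 CPM in the other libraries of its group, and without it the same number of enzymes, 8 of 9, fell.

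In cells with added SREBP2, no enzyme passed the test for an EST effect. The log2 fold changes ran from -0.06 for Idi1 to 0.07 for Fdps, and the libraries of SREBP2 and SREBP2+EST overlapped in all 9 genes. Most genes overlapped here, since the libraries of both groups were apart upward in 4.16% and downward in 3.27% of all genes. The 95% intervals allow at most a fall to 0.881 of the SREBP2 level (Idi1) and a rise of 1.12-fold (Fdps). The lowest unadjusted p among the 9 in edgeR was 0.137, for Fdps. Of all genes, 0% were called in this comparison by edgeR, 506 (4.53%) had an unadjusted p under 0.05, and DESeq2 called 12. Summed fibroblast markers were 4.02 to 5.42 CPM in SREBP2 and 18.6 to 35.1 CPM in SREBP2+EST, and their part in this comparison was not tested. This comparison depends on the libraries numbered 1, which lay nearest the other group on principal component 1. Leaving out SREBP2 library 1 and SREBP2+EST library 1 together widens the distance between these groups by construction, and no other pair of libraries was left out for comparison. Without both, 1567 genes were called, among the enzymes only Hmgcs1, at a log2 fold change of -0.11 (edgeR adjusted p = 0.0208), while Pmvk was at -0.12, Idi1 at -0.09 and Sqle at -0.09 without passing. These values describe that fit and are no independent test.

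**Figure D4:**
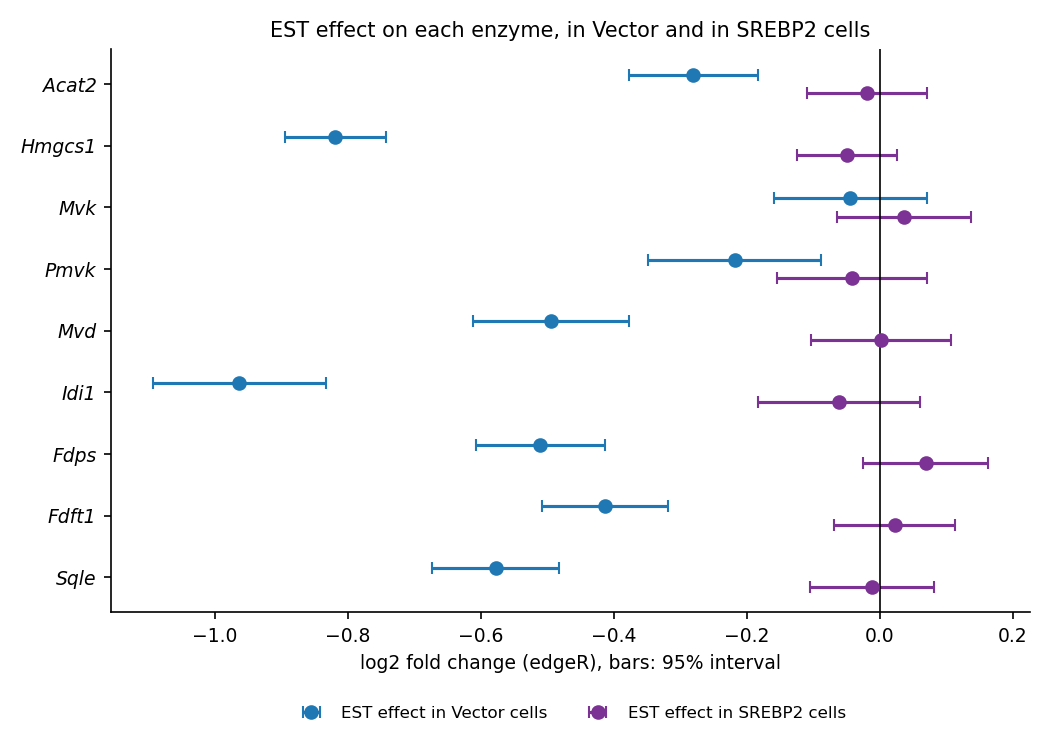
Log2 fold change of each enzyme with EST (horizontal axis, edgeR; bars are 95% intervals) in Vector cells (blue) and in SREBP2 cells (purple). In Vector cells 8 of 9 intervals lie below 0, with Idi1 and Hmgcs1 farthest to the left, and in SREBP2 cells all 9 intervals include 0.

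Whether EST acted differently in SREBP2 cells than in Vector cells was tested as an interaction. The difference was positive and past the threshold for 7 of the 9 enzymes, where 59% of all genes passed, 29.8% with a positive and 29.2% with a negative difference. The log2 differences were 0.90 ± 0.08 (SE) for Idi1 (edgeR adjusted p = 1.58e-07), 0.77 ± 0.05 for Hmgcs1 (adjusted p = 2.44e-09), 0.58 ± 0.06 for Fdps, 0.57 ± 0.06 for Sqle, 0.50 ± 0.07 for Mvd, 0.44 ± 0.06 for Fdft1 and 0.26 ± 0.06 for Acat2 (adjusted p = 0.00182). Pmvk, at 0.18 ± 0.08 (adjusted p = 0.0733), and Mvk, at 0.08 ± 0.07 (adjusted p = 0.354), did not pass. Pmvk passed with library totals only, with at least 10 counts in every library, and in the fits lacking Vector 4, Vector 5, SREBP2 5 or Vector+EST 5, with edgeR or DESeq2 adjusted p from 0.0185 to 0.308 over all settings. Because the same SREBP2 libraries enter this test, what was said of the libraries numbered 1 touches it too, and without both of them 7 enzymes again passed.

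Set against untreated Vector cells, SREBP2+EST cells held more of all 9 transcripts, from 1.52-fold for Sqle (95% interval 1.42 to 1.62) to 5.47-fold for Pmvk (5.01 to 5.96). In the same comparison 38.6% of all genes were higher, and in 40.3% of genes every SREBP2+EST library lay above every Vector library. Fibroblast markers moved in this comparison too, with 4 of the 5 tested higher and Col1a2 lower (log2 fold change -1.49 ± 0.15, SE). Col1a1, a collagen chain, was at no more than 0.0513 CPM in Vector and at 6.50 to 13.8 CPM in SREBP2+EST, and the part of such cells in the enzyme values was not tested. Each enzyme followed the order Vector+EST, Vector and the SREBP2 groups. The step from Vector+EST to Vector was beyond the spread of libraries in 8 genes and not in Mvk, the step from Vector to SREBP2+EST in all 9, and the step between SREBP2+EST and SREBP2 in none.

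Levels of different genes can be compared only per length of transcript, and the outcome depended on the transcript chosen. Per kilobase of the longest annotated transcript, Hmgcs1 stood highest in Vector at 216 ± 2.77 CPM per kilobase (SD, n = 3), Fdps next at 108 ± 1.42 and Mvk lowest at 25.0 ± 1.44. The longest transcript of Fdps is a single exon, and per kilobase of its longest coding transcript Fdps stood at 231 ± 3.03 CPM per kilobase, above Hmgcs1. With the longest, the longest coding or the median transcript length, Hmgcs1 and Fdps held the top 2 ranks in Vector and Mvk the last. Pmvk went from rank 8 in Vector to rank 2 in SREBP2 with the longest transcript, from 8 to 3 with the longest coding transcript and from 7 to 4 with the median length. Sqle went the other way, from rank 3 to 8, from 3 to 6 and from 5 to 9.

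Across the 12 libraries the 9 enzymes varied together. The log2 levels of their 36 pairs had Pearson correlations from 0.899 to 0.998, with a median of 0.981. These values are a description, since the libraries fall into groups. Of 8485 other genes whose log2 CPM averaged 3 or more, the 5 whose log2 level was most like the mean pattern of the enzymes included Mmab (r = 0.998), Dhcr7 (0.998), Me1 (0.998) and Pgrmc2 (0.997). Dhcr7 encodes a reductase of the last steps to cholesterol, Me1 the cytosolic malic enzyme that supplies NADPH, and Pgrmc2 a heme-binding membrane protein. Mmab, which shares its promoter DNA with Mvk, had means of 50.0 ± 0.350 CPM in Vector, 43.1 ± 1.27 in Vector+EST, 75.9 ± 1.41 in SREBP2 and 74.8 ± 1.88 in SREBP2+EST (SD, n = 3). It rose with SREBP2 in both settings, by log2 fold changes of 0.60 ± 0.04 (SE) without and 0.79 ± 0.04 with EST, less than Mvk at 1.92 ± 0.05 and 2.00 ± 0.05. With EST in Vector cells Mmab fell by 0.21 ± 0.04 on the log2 scale (edgeR adjusted p = 0.000347), where Mvk did not pass the test.

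The rest of the pathway was read from 3 further lists. HMG-CoA reductase and the steps after Sqle, 12 genes, were all higher with SREBP2, 12 of 12 without EST, where 37.7% of all genes rose, and 12 of 12 with EST, where 14% rose. Tm7sf2, a sterol reductase, rose most in both settings, by log2 fold changes of 3.01 ± 0.06 (SE) and 3.14 ± 0.06. With EST in Vector cells, 6 of these 12 fell, 3 rose and 3 did not pass, where 35.5% of all genes fell and 35.2% rose, and the median log2 fold change of the list was -0.12 beside -0.49 for the 9 enzymes. The largest rise was that of the sterol isomerase Ebp, at 1.06 ± 0.06. The list of SREBP control and sterol uptake had 11 genes, of which Insig1, an SREBP-retaining protein, was left out by the filter with at most 2 counts in a library. Of the other 10, 9 rose and Scap fell without EST (Scap -0.39 ± 0.05), and with EST 7 rose and 3 did not pass. With EST in Vector cells 4 genes of this list rose, led by the lysosomal sterol carrier Npc2 at 1.78 ± 0.05, and 3 fell, led by the sterol transfer protein Stard4 at -0.52 ± 0.05.

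The branches that leave the pathway at isopentenyl and farnesyl diphosphate moved near the background shares. Of 11 genes for dolichol, ubiquinone and prenylation enzymes, 3 rose, 4 fell and 4 did not pass with SREBP2 without EST, where 37.7% of all genes rose and 33.8% fell. With EST, 1 rose (Dhdds, dolichol synthesis, 0.16 ± 0.05), 1 fell (Rabggtb, a prenyltransferase subunit, -0.13 ± 0.04) and 9 did not pass, with a median log2 fold change of -0.04 beside 2.00 for the 9 enzymes. Of all genes, 14% rose and 7.94% fell in this comparison. In Vector cells with EST, where 35.2% of all genes rose and 35.5% fell, 4 of the 11 rose, led by Ggps1, which makes geranylgeranyl diphosphate, at 0.62 ± 0.06. In the same cells 3 fell, led by Pdss1, which builds the ubiquinone side chain, at -0.73 ± 0.09.

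**Figure D5:**
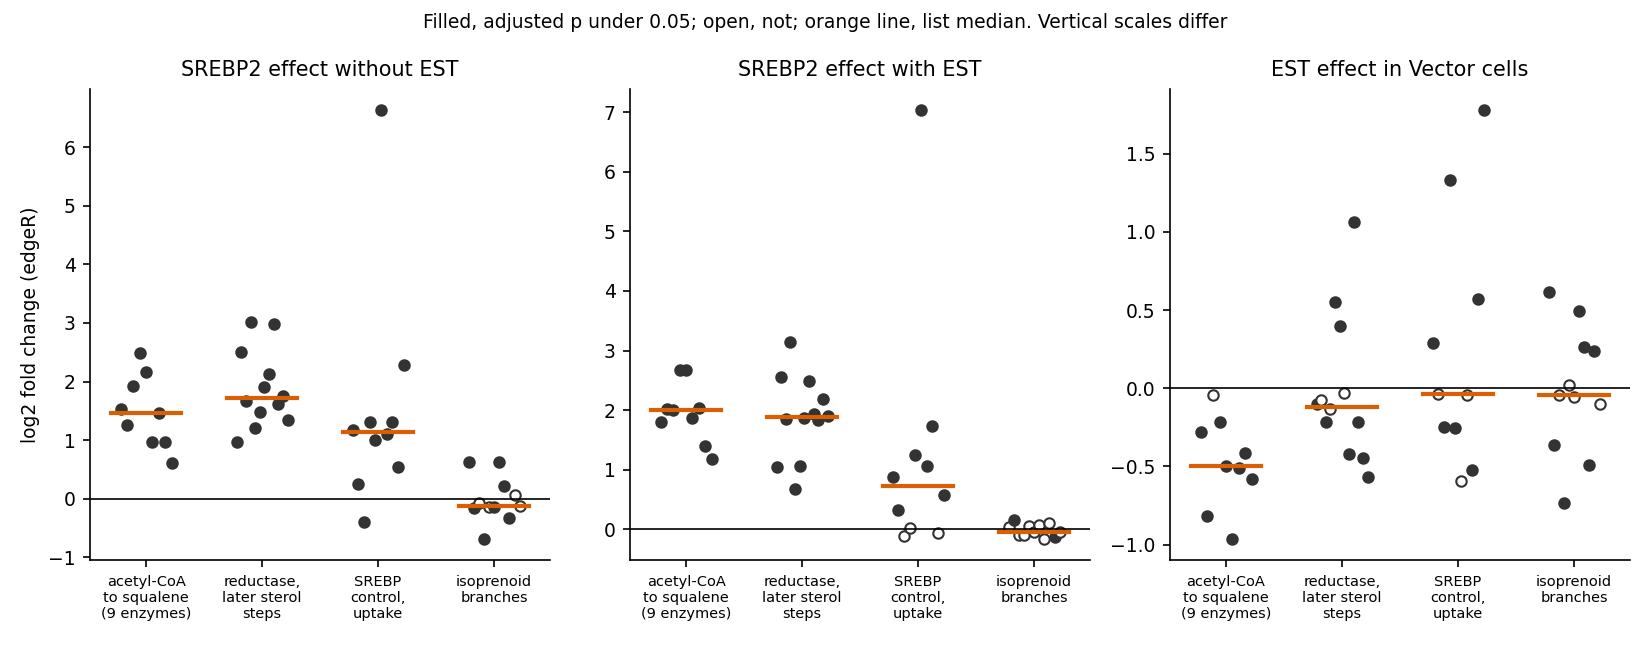
Log2 fold change (vertical axis, edgeR; scales differ between panels) of the genes of 4 pathway lists in 3 comparisons; filled points passed an adjusted p of 0.05, open points did not, and orange lines are list medians. With SREBP2 all points of the first 2 lists lie above 0 while the branch genes lie around 0, and with EST in Vector cells the 9 enzymes lie lowest by median, at -0.49.

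Of the paralogs and neighbours of the 9 genes, 6 were tested. With EST in Vector cells 5 of the 6 fell and none rose, with a median log2 fold change of -0.55 beside -0.49 for the 9 enzymes, where 35.5% of all genes fell. With SREBP2 without EST 4 fell and 1, Mmab, rose, where 33.8% of all genes fell and 37.7% rose. Acat1, the mitochondrial thiolase, did not pass in any of these comparisons, with log2 fold changes from -0.08 to 0.04. Idi2, a paralog of Idi1, had means of 0.697 ± 0.0609 CPM in Vector (SD, n = 3) and of 0.179 to 0.235 CPM in the other groups. It was lower with SREBP2 without EST (log2 fold change -1.92 ± 0.39, SE) and lower with EST in Vector cells (-1.83 ± 0.38), at levels near the floor of 3 counts (0.153 to 0.163 CPM). Acat3 was lower in the same comparisons, by -0.94 ± 0.24 and -0.89 ± 0.24, while Acat2 beside it rose in the former and fell in the latter. Rusc1, the neighbour of Fdps, was lower in both as well, at -1.05 ± 0.09 and -1.03 ± 0.09, and Tcp1, a chaperonin subunit gene that overlaps Acat3 by 1238 bases, at -0.16 ± 0.03 and -0.13 ± 0.03. With SREBP2 in EST-treated cells Mmab was higher and none of the other 5 passed, where 14% of all genes were higher and 7.94% lower.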

How the data were processed

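RNA was sequenced from 12 libraries of G1E-ER4 cells (50-base single-end reads). The authors deposited expected counts per gene, not normalized, estimated for 17210 genes. The submitters' processing notes name HISAT2 2.0.4, Bowtie2 2.2.5, RSEM 1.2.12, DESeq2 1.4.5 and build GRCm38.p6, without roles. A second deposited table holds only the authors' own comparisons and was not used. Libraries carry the name of their group and their number in the count table's header, which could not be tied to the titles' replicate numbers.

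Counts were rounded, and genes passing filterByExpr (11177; 6033 left out) were tested with the quasi-likelihood F-test of edgeR 4.0.16 (R 4.3.3) on TMM-scaled libraries, with all 12 in a single fit of 4 group means. P-values were adjusted by Benjamini-Hochberg over all genes tested (threshold 0.05). SE was obtained from the log2 fold change and F (their ratio, F taken to its square root), and CPM uses library totals over all genes multiplied by their TMM factors. Counts were simulated for 11177 genes. In them, 50 genes each were changed 1.25-, 1.5-, 2- and 4-fold, up or down, and the rest were left unchanged. The same changes were put in SREBP2 and SREBP2+EST. In SREBP2 against Vector without EST, 80% of 50 genes changed 2-fold and 50% of 50 changed 1.25-fold were recovered. Of 170 calls, 14 were false. The data themselves had 71.5% of genes called in this comparison, so these rates do not carry over to them. Positions, transcript lengths and promoters came from RefSeq (GRCm38.p6) and GENCODE M21.

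The members and lists were chosen with earlier results of these data known. Named were all 9 members, Srebf2, Gata1, the paralogs and neighbours, the extreme genes of each list, and the 5 genes of most similar pattern. Ctsb, Insig1, Pf4, Itga2b, Gp9, Col1a1, Col1a2, Gm43738, Gm48342, Gm13502 and Gm51557 were named after their values were seen. Some genes under this rule are not reported here. Alternatives were DESeq2 1.42.0, relative log expression or no scaling beyond totals, 2 other filters, fits of the compared libraries only, a block for the header number, and each library left out. Median transcript length was set beforehand and longest coding length was added after seeing the data.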

Additional observations from a re-analysis of the deposited data

Results flagged for a closer look

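In 7 enzymes the effect of EST differed between SREBP2 cells and Vector cells by the interaction test of edgeR. The difference, as the log2 EST effect in SREBP2 cells minus that in Vector cells, was 0.90 for Idi1, 0.77 for Hmgcs1, 0.58 for Fdps, 0.57 for Sqle, 0.50 for Mvd, 0.44 for Fdft1 and 0.26 for Acat2. In each, every Vector+EST library lay below every Vector library, an arrangement found downward in 37.9% of all genes. SREBP2 and SREBP2+EST libraries overlapped in each, as in most genes, since 4.16% of all genes were apart upward and 3.27% downward. Of all genes, 59% had an interaction past the threshold. By edgeR, 0% of all genes were called for an EST effect in SREBP2 cells. The 7 differences therefore largely restate the falls with EST in Vector cells, with the sign turned.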

How the results depend on the processing

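All 9 enzymes were higher with SREBP2, without EST, with EST and in SREBP2+EST against Vector, under every alternative run, and the median over all genes moved by less than 0.1 on the log2 scale with the scaling. With EST in Vector cells the same count of 8 fell under each, and only Mvk, which did not pass, turned sign, with log2 fold changes from -0.118 to 0.0011 over fits that left out a library. In SREBP2 cells the EST values near 0 turned sign in fits without a library for Acat2 (-0.0567 to 0.0151), Pmvk (-0.0875 to 0.0110), Mvd (-0.0208 to 0.0300), Fdft1 (-0.0144 to 0.0612) and Sqle (-0.0569 to 0.0264), none past the threshold. Mvd also turned to -0.00579 with DESeq2 and with relative log expression scaling, -0.000537 with at least 10 counts in every library, -0.000909 with the compared libraries only, and -0.0148 without both libraries numbered 1, where Fdft1 was at -0.00679. In that last fit, which left out the libraries nearest the opposite group, 1 enzyme (Hmgcs1) and 1567 genes were called. The number of all genes called with EST in SREBP2 cells was 12 with DESeq2, 22 without a filter, 8 with the compared libraries only, and 0 to 18 leaving out each library (18 without Vector+EST 5), and the cause was not tested.

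The header numbers are shared between groups only as numbers: deviations of 13 same-number pairs correlated between -0.465 and 0.376 (median -0.0892), other pairs had a median of 0.00649, and 3 of 8 libraries numbered 1 or 5 correlated best with their own number. With the replicate block, 1208 genes were called for SREBP2 with EST in place of 2448, Mvd turned to -0.0119 and Sqle to 0.0348 for EST in SREBP2 cells, and no call of an enzyme changed in any comparison. Leaving out each library, 7 to 8 enzymes passed the interaction test.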
